A study of Homo sapiens with 19 samples.

Results

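The acute transcript response of SH-SY5Y cells, a human neuroblastoma line, to sodium arsenite (AS) was read from 1 rRNA-depleted RNA-seq library of cells treated with 500 μM AS for 1 h and 1 library of untreated cells. The genes described here are the protein-coding genes whose canonical transcript was above 1 FPKM (fragments scaled to transcript length and to the library's total) in at least 1 of the 2 libraries. They were 10774 of the 19733 protein-coding genes with a canonical transcript in the table, which lists 256980 transcripts. These 2 of the 19 samples in the series belong to a study of the RNAs bound by the stress granule proteins G3BP1 and G3BP2. That study also holds eCLIP (crosslinking and immunoprecipitation), knockdown and stress granule (SG) core libraries, which are used below only as side values. With 1 library per side, nothing tells whether a difference exceeds the spread between cultures. No test was run, and each 95% interval below covers counting error only. PCR copies carry no molecular identifiers here and count as separate reads, so the intervals may be too narrow even for that. In bulk RNA, fewer cells of a kind and less RNA per cell cannot be told apart.

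Arsenite is a thiol-reactive metalloid. In mammalian cells it activates stress kinases, heat shock factor, the antioxidant factor NRF2 and the metal sensor MTF1, and through phosphorylation of eIF2α it stops most translation and brings mRNAs into stress granules. Immediate-early genes, such as EGR1, FOS and JUN, encode transcription factors and are switched on by kinase cascades without prior protein synthesis. Their mRNAs are short lived, so that they stand low in unstimulated cells.

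In the AS-treated library, 434 of the 10774 genes were called higher, which means a ratio above 2 to the untreated value with the AS value above 1 FPKM (background 4.03%). Only 40 were called lower, with a ratio below 0.5 and the untreated value above 1 FPKM (background 0.371%), and 10300 lay between. Among genes above 1 FPKM in both libraries the median ratio was 1.22 (0.28 on the log2 scale, n = 10043), and the quartiles were 1.09 and 1.38. The totals that the values were divided by were 13291958.5 fragments (untreated) and 11281587 fragments (AS-treated). When the AS values were divided by the median ratio, 188 genes were higher and 75 were lower, so that the share of calls that were higher moved from 91.6% to 71.5%. Ratios below are as deposited unless they are given relative to the median. The list counts below stand beside 4.03% higher over all genes, or 188 of 10774 relative to the median. The calls depend on the cut, since BBC3 lay just inside at a ratio of 2.003 and TRIB1 just outside at 1.9998. Likewise COL1A1 entered with 1.004 FPKM and EGR2, at 0.982 FPKM, stayed out.

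**Figure D1:**
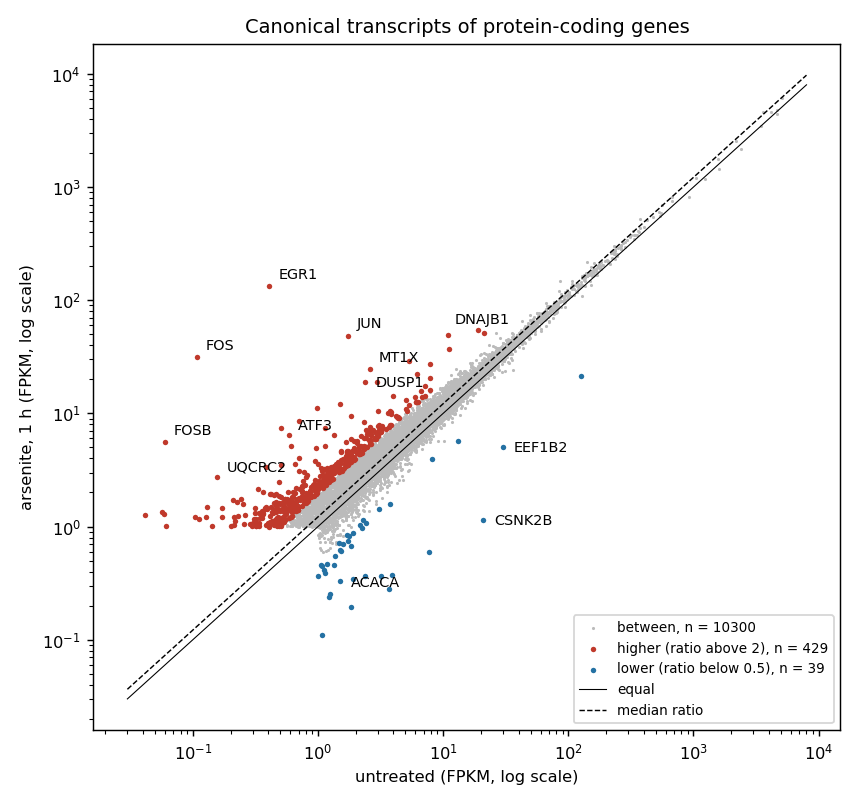
FPKM of the canonical transcript in the untreated (x) and the AS-treated (y) library, both on log axes, 1 point per protein-coding gene above 1 FPKM in either and above 0 in both (n = 10768). Red points are the 429 genes called higher and blue points the 39 called lower. The 5 higher genes and 1 lower gene listed at 0 in one library are not drawn. EGR1, FOS and FOSB stand farthest above the dashed median ratio of 1.22.

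The promoters of 9 genes called higher are shown first. They were picked after the search because they hold a known response element, so they do not stand for the higher genes as a whole. They are RefSeq windows (GRCh38.p14) of 250 bases before to 50 after the transcription start, and in each that start is the one of the canonical transcript used here. In EGR1 (chr5:138465229-138465528, plus strand) the capitals mark 2 CArG boxes, the element bound by serum response factor. In JUN (chr1:58783998-58784297, minus strand) they mark the AP-1-like element TGACATCA. In DUSP1 (chr5:172771146-172771445, minus strand) and JUND (chr19:18281573-18281872, minus strand) they mark the cyclic AMP response element TGACGTCA.
EGR1: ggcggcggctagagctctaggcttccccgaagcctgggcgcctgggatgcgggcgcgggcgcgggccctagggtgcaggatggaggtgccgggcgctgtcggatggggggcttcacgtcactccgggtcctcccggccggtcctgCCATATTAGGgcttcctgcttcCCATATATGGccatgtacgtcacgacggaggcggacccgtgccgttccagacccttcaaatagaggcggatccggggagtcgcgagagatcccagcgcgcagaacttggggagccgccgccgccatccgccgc
JUN: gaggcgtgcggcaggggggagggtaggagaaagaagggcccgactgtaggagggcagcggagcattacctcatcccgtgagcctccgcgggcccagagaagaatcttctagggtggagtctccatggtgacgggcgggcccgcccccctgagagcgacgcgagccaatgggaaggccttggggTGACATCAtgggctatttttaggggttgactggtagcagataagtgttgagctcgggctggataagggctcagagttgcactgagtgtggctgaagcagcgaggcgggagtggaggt
DUSP1: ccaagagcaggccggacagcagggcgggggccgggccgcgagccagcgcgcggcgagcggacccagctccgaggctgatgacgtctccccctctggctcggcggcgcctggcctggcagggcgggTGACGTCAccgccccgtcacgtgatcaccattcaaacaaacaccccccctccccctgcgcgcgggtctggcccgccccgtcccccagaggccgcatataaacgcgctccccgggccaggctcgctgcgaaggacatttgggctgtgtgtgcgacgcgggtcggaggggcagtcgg
JUND: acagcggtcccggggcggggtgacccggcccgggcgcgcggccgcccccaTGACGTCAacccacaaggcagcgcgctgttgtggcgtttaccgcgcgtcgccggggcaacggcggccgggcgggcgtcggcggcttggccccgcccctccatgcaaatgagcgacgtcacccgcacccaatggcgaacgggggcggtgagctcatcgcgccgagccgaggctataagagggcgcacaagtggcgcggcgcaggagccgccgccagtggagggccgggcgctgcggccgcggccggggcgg

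In HSPA6 (chr1:161524290-161524589, plus strand) the capitals mark a heat shock element of 3 alternating GAA and TTC units, each 2 bases apart, and in DNAJB1 (chr19:14518348-14518647, minus strand) they mark 2 copies with 2 units (GAANNTTC).
HSPA6: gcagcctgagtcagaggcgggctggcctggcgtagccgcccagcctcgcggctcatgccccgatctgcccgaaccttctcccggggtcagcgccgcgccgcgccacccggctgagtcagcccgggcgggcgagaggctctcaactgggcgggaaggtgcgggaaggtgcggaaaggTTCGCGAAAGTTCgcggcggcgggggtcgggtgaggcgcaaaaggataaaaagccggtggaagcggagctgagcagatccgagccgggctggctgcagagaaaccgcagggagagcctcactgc
DNAJB1: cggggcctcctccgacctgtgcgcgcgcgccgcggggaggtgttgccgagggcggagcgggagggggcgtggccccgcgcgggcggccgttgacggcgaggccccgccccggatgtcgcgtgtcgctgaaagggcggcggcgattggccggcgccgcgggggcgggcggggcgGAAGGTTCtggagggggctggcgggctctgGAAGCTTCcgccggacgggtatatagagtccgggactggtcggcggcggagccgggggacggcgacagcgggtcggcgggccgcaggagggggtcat

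In MT1X (chr16:56682220-56682519, plus strand), MT2A (chr16:56608334-56608633, plus strand) and SLC30A1 (chr1:211579112-211579411, minus strand) the capitals mark the core of the metal response element (TGCACNC or TGCGCNC on either strand), with 4, 8 and 2 matches.
MT1X: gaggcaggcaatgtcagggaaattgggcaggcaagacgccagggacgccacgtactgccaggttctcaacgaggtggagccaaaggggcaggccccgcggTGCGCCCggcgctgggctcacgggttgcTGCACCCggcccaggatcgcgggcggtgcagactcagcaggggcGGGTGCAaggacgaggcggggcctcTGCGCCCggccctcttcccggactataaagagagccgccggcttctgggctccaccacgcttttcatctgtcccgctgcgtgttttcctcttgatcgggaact
MT2A: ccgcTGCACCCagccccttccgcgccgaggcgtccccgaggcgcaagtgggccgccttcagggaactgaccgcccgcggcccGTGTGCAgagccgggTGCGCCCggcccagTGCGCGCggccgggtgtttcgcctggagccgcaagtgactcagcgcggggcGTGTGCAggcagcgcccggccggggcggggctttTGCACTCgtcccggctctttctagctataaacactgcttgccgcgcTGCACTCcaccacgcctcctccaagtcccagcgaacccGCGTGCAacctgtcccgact
SLC30A1: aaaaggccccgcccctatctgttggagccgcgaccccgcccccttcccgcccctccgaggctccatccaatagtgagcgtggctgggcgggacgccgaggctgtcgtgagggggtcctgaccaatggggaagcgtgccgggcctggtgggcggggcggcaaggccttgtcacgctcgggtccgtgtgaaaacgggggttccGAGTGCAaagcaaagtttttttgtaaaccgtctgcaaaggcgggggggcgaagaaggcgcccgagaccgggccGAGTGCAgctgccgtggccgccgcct

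Both strands were searched, and the shorter heat shock pattern lies inside the longer one. A window starting within 100 bases of the canonical start was found for 8300 of the 10774 genes and for 328 of the 434 higher genes. TGACGTCA was present in 31 of these 328 (9.45%), in 3.94% of the 8300 and in 1.85% of all 35116 windows. TATAAA, the TATA box, was present in 10.1% of the higher genes, in 4.84% of the 8300 and in 11.5% of all windows. TGACTCA or TGAGTCA, the AP-1 element, was in 4.88%, 2.14% and 4.95%, respectively. TGACATCA was in 2.13%, 1.24% and 2.61%, and the CArG box was in 1.22%, 0.988% and 1.29%. The 3-unit heat shock element was rare in all 3 sets (0.61%, 0.289% and 0.49%), and GAANNTTC was in 4.88%, 4.17% and 6.77%. The metal core was common everywhere, with 39.9% of higher genes, 41.9% of the 8300 and 29.6% of all windows. In percentage points, TGACGTCA and TATAAA had the widest gaps between the higher genes and the 8300, and the window of FOS held TATAAA but none of the other elements. The windows of IER2, RHOB, ZFAND2A and NEDD8 held none of the elements searched. These are matches of letters, and no match says only that the letters are not in the window.

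EGR1, FOS and JUN served as the check of the treatment label, and all 3 were far higher in the AS-treated library. EGR1, a zinc-finger factor, had 0.408 FPKM (17 reads) without and 134 FPKM (4745 reads) with AS. Its ratio of 329 (interval 205 to 565) was the largest among genes above 10 FPKM, and it went from rank 11551 to rank 127 among canonical transcripts. EGR1 (ENSG00000120738) lies at chr5:138465479-138469303 and has 2 exons. FOS, the AP-1 subunit at chr14:75278828-75282230, had 0.107 FPKM (3 reads) and 31.6 FPKM (749 reads). Its ratio of 294 (interval 100.3 to 1430) rests on the 3 untreated reads. JUN, the partner of FOS and a gene of 1 exon at chr1:58780791-58784047, had 1.73 FPKM (75 reads) and 48.6 FPKM (1786 reads), a ratio of 28.1 (interval 22.3 to 35.8). All 9 transcripts of FOS above 1 FPKM were called higher. Of these, 2 were listed at 0 in untreated cells, and the others had ratios from 133 to 443.

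The AP-1 factors, which bind DNA as pairs of FOS, JUN and ATF or MAF proteins, had 15 listed genes, of which 9 were above 1 FPKM. Of these, 7 were higher, none was lower, and the median log2 ratio was 1.86, which is 1.57 relative to all genes. FOSB had 0.06 FPKM (3 reads) and 5.61 FPKM (239 reads). ATF3, a factor induced by many stresses, had 0.582 and 6.44 FPKM, a ratio of 11.1 (interval 6.49 to 20.3). The JUN paralogs moved less from higher starting levels, with JUNB at 6.17 and 22.3 FPKM (ratio 3.62, interval 3.01 to 4.38) and JUND at 18.95 and 54.8 FPKM (ratio 2.89, interval 2.6 to 3.22). MAFF was at 0.666 and 2.2 FPKM, a ratio of 3.31. FOSL2 (1.03 and 1.39 FPKM) and MAFG (5.29 and 5.41 FPKM) were not called, and MAFG had a ratio below the median of all genes.

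Of 14 other immediate-early genes above 1 FPKM, 10 were called higher and none lower, or 7 relative to the median, with a median log2 ratio of 1.26. IER2 had 5.31 FPKM (149 reads) and 29.0 FPKM (691 reads), a ratio of 5.46. BTG2, an antiproliferative co-regulator of deadenylation, had 1.13 and 7.37 FPKM (ratio 6.52), and ARC, a neuronal cytoskeletal gene, had 0.332 and 2.13 FPKM (ratio 6.43). The largest level after EGR1 in this list was that of MCL1, a short-lived survival protein of the BCL2 family, at 21.2 and 51.6 FPKM with a ratio of 2.43 (interval 2.27 to 2.62). KLF6 had 3.84 and 9.91 FPKM (ratio 2.58) and NR4A1 had 1.27 and 2.6 FPKM (ratio 2.05). SRF, which encodes serum response factor itself, was at 4.52 and 5.15 FPKM and was not called. The other EGR genes stayed under 1 FPKM, with 5 and 33 reads for EGR2 and 1 and 36 reads for EGR3. NR4A2, IER3 and KLF4 had 0 reads in both libraries.

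**Figure D2:**
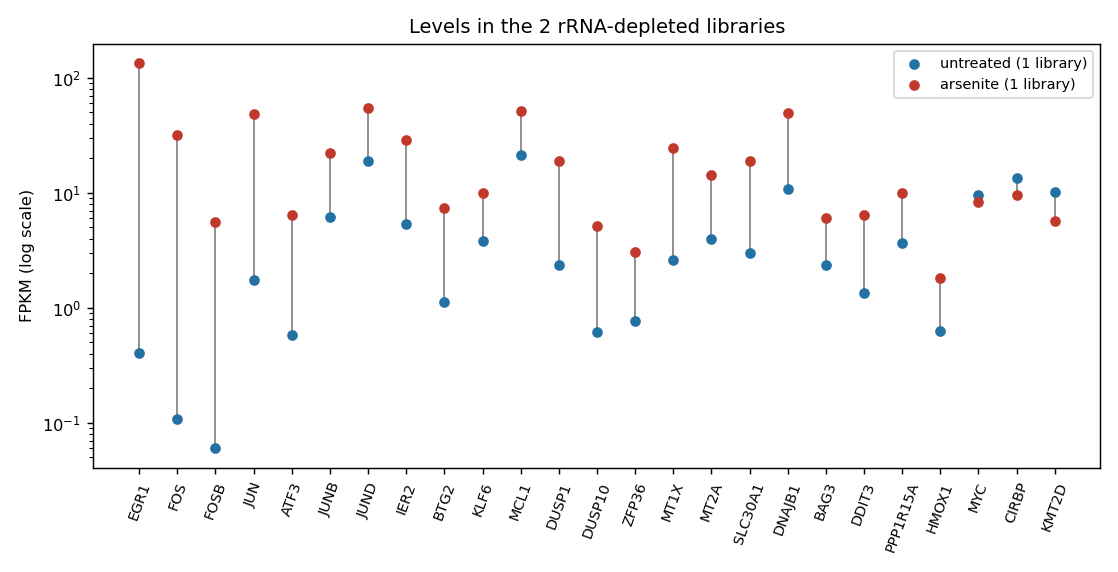
FPKM (log axis) of 25 named genes (x) in the untreated (blue) and the AS-treated (red) library, 1 point per library and no error bars. The vertical distance is the ratio, which is largest for EGR1, FOS and FOSB. MYC, CIRBP and KMT2D have the red point below the blue one.

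Negative feedback on the kinase cascades was represented by 11 genes above 1 FPKM, of which 4 were higher. DUSP1, a phosphatase of p38 and JNK, had 2.35 FPKM (63 reads) and 19.1 FPKM (433 reads), a ratio of 8.1 (interval 6.21 to 10.7). DUSP10, with the same substrates, had 0.61 and 5.1 FPKM (ratio 8.36), and DUSP5, a nuclear ERK phosphatase, had 0.243 and 1.75 FPKM (ratio 7.22). The ERK phosphatases DUSP4, DUSP6 and DUSP7 had ratios from 1.29 to 1.44, and SPRY2 and SPRY4 had 1.21 and 1.08. Thus all 3 called DUSP genes had ratios above 7, the other 3 phosphatases were near the median of all genes, and the median log2 ratio of the list was 0.43.

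Factors that shorten mRNA poly(A) tails or bind AU-rich elements were called higher in 5 of 11 cases, or in 4 relative to the median. ZFP36, which encodes tristetraprolin, had 0.775 and 3.04 FPKM (ratio 3.93), whereas its paralog ZFP36L2 had 7.01 and 8.59 FPKM (ratio 1.23). TOB1 and TOB2, adaptors of the CCR4-NOT deadenylase, had ratios of 2.62 and 2.91, with TOB1 at 7.87 and 20.6 FPKM. The deadenylase subunits CNOT1, CNOT6, CNOT7 and CNOT8 had ratios from 1.18 to 1.4 and were not called.

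Among 26 further early-response regulators above 1 FPKM, 7 were higher, or 6 relative to the median. RHOB, a short-lived small GTPase, had the highest AS level of these, at 11.2 FPKM (353 reads) and 37.3 FPKM (996 reads). MXD1, an antagonist of MYC, had 0.963 and 4.97 FPKM (ratio 5.16), and SERTAD3 had 1.82 and 9.42 FPKM (ratio 5.18). TIPARP and RGS2 had ratios of 3.22 and 2.99. MYC itself had 9.6 FPKM (475 reads) and 8.36 FPKM (351 reads), a ratio of 0.871 (interval 0.756 to 1.002), and was not called. The NF-kB and cytokine list had 20 of its 32 genes under 1 FPKM, among them CXCL8 with 0 reads in both libraries. Of the other 12, 5 were higher (4 relative to the median), all from low levels, with HBEGF at 0.51 and 1.84 FPKM, NFKBIZ at 0.46 and 1.65 FPKM and SOCS3 at 0.605 and 1.69 FPKM. NFKBIA, the inhibitor and main target of NF-kB, was at 10.4 and 16.4 FPKM, a ratio of 1.58 that was not called.

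Metal-responsive genes were called higher in 4 of 7 cases, or in 3 relative to the median. MT1X, a metallothionein that binds metal ions through its cysteines, had 2.61 FPKM (14 reads) and 24.6 FPKM (112 reads), a ratio of 9.43 (interval 5.39 to 17.8). MT2A had 3.94 FPKM (21 reads) and 14.4 FPKM (65 reads), a ratio of 3.65 (interval 2.2 to 6.28). SLC30A1, the plasma membrane zinc exporter, had 2.97 FPKM (233 reads) and 18.95 FPKM (1260 reads), a ratio of 6.37 (interval 5.54 to 7.36). Their activator MTF1 was at 2.22 and 4.51 FPKM (ratio 2.03, or 1.67 relative to the median, which was not called), while the copper transporters ATP7A and ATP7B, at 1.14 and 1.28, were not called. MT1X, MT2A and SLC30A1 carry the metal response cores printed above. The other metallothioneins had at most 4 reads in a library. Metallothionein genes are near-identical copies of short length, so that reads may have been exchanged among them.

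Chaperones and heat shock factor targets were called higher in 6 of 30 cases, or in 2 relative to the median, and none was lower. DNAJB1, the HSP40 partner of HSP70, had 10.9 FPKM (324 reads) and 49.3 FPKM (1246 reads), a ratio of 4.53 (interval 4.01 to 5.14). BAG3, a co-chaperone of selective autophagy, had 2.35 and 6.02 FPKM (ratio 2.56). HSPA6, a strictly inducible HSP70, was listed at 0 in untreated cells and had 1.17 FPKM (31 reads) after AS. The abundant constitutive chaperones moved little, with HSPA8 at 372 and 519 FPKM and HSP90AA1 at 142 and 216 FPKM. The main inducible HSP70 genes HSPA1A and HSPA1B, which are near-identical copies, had 0 and 1 read each. HSF1 was likewise listed at 0 in both libraries although it had 39.7 TPM in the siCtrl poly-A library. ZFAND2A, an arsenite-inducible proteasome-associated gene on no list, had 3 FPKM (35 reads) and 10.6 FPKM (105 reads), a ratio of 3.53.

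The integrated stress and unfolded protein response list had 6 of 31 genes called higher (4 relative to the median) and a median log2 ratio of 0.6, or 0.31 relative to all genes. DDIT3, which encodes the factor CHOP, had 1.33 FPKM (16 reads) and 6.38 FPKM (65 reads), a ratio of 4.79 (interval 2.74 to 8.86). DDIT4, an inhibitor of mTORC1 signalling, had 2.33 and 8.44 FPKM (ratio 3.62). PPP1R15A, the phosphatase subunit that dephosphorylates eIF2α, had 3.65 and 10.0 FPKM (ratio 2.74), and CHAC1 had 1.93 and 5.66 FPKM (ratio 2.93). ATF4, whose synthesis is mainly controlled in translation, was at 42.5 and 65.7 FPKM, and HSPA5 was at 22.3 and 27.8 FPKM. Neither of them was called. The eIF2α kinases EIF2AK1 and EIF2AK4 were at ratios of 1.07 and 1.06.

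The NRF2 list had a median log2 ratio of 0.36 at 1 h, close to the 0.28 of all genes. In it 2 of 21 genes were higher (1 relative to the median), against 4.03% over all genes. HMOX1, heme oxygenase, was called from few reads, at 0.629 FPKM (13 reads) and 1.83 FPKM (32 reads), and its ratio was 2.9 (interval 1.48 to 6.02). OSGIN1 had 12 and 26 reads (ratio 2.55). GCLC, of glutathione synthesis, had a ratio of 1.74 and NFE2L2, which encodes NRF2, one of 1.76. FTL and FTH1, the ferritin chains and the highest levels in the list, had ratios of 1.33 and 1.08.

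Of 25 growth-arrest and p53 genes above 1 FPKM, 7 were called higher, but 1 relative to the median. GADD45G had 7 and 19 reads (ratio 3.2) and PPM1D had 6.03 and 12.6 FPKM (ratio 2.09, interval 1.85 to 2.38). CDKN1A, the p21 inhibitor, was at 4.66 and 7.66 FPKM and MDM2 at 9.0 and 9.01 FPKM, and neither was called. In the sterol list, 4 of 18 genes passed and none did relative to the median. IDI1, INSIG1 and HMGCS1 had ratios from 2.01 to 2.26, with INSIG1 at 6.05 and 12.5 FPKM, and the median log2 ratio of the list was 0.62. CLK1, a kinase of splicing factors, was the single call in 33 splicing genes, at 6.64 and 15.7 FPKM, and ADM the single call in 28 hypoxia and glycolysis genes, at 1.82 and 4.04 FPKM. Relative to the median neither CLK1 nor ADM was called, with ratios of 1.94 and 1.83. A single call in lists of this size is near the share over all genes, 4.03%. CCNL1, a cyclin in nuclear speckles and on no list, was at 7.91 FPKM (244 reads) and 27.1 FPKM (710 reads), a ratio of 3.43.

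**Figure D3:**
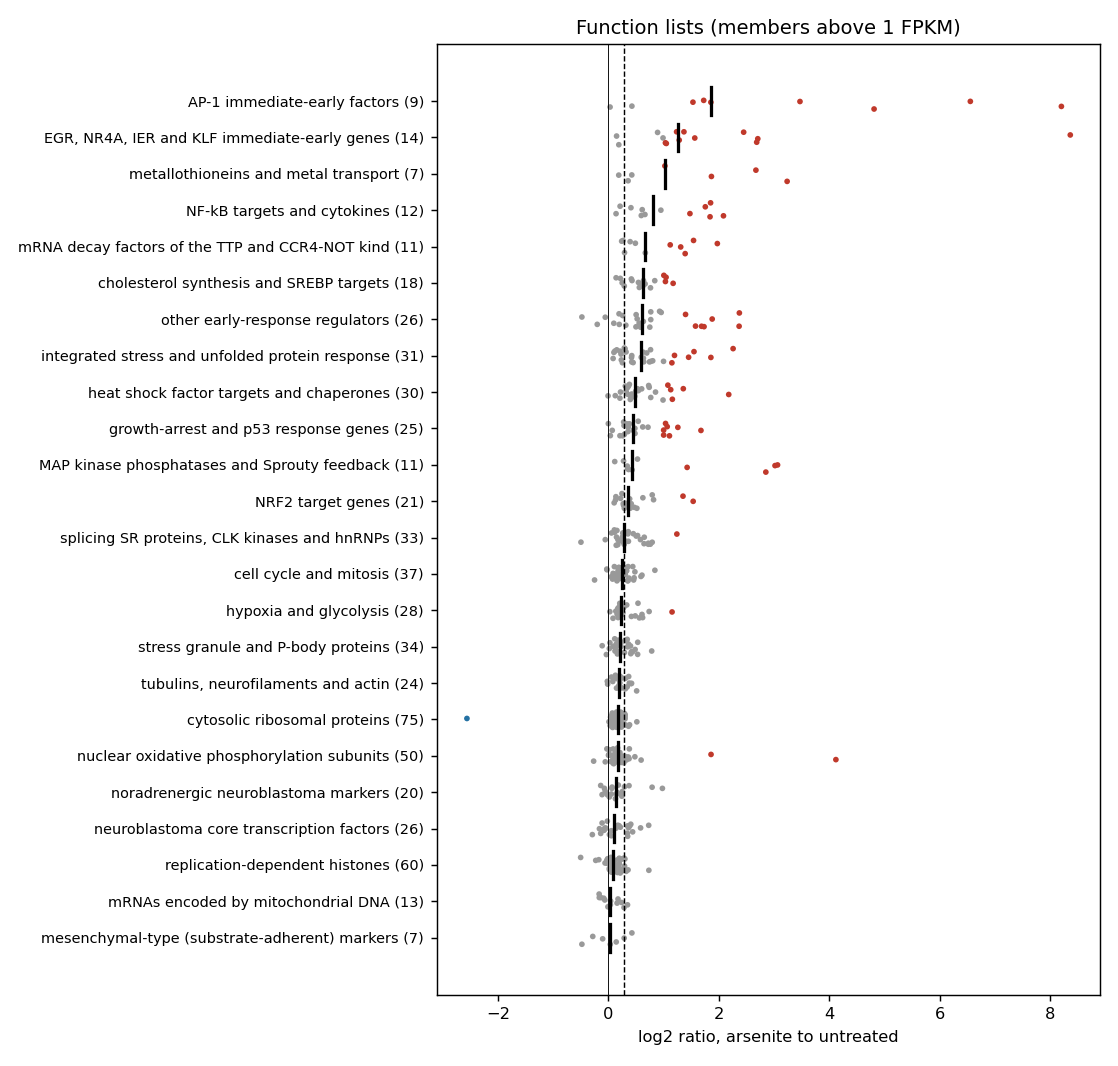
Log2 ratio of AS-treated to untreated FPKM for the members of 24 function lists above 1 FPKM (number in parentheses; genes listed at 0 are not drawn), with red for called higher, blue for called lower and a black bar for the list's median. The dashed line is the median of all genes, 0.28. The AP-1 list has the highest median, 1.86 and the mesenchymal-type and mitochondrial lists the lowest, both 0.04.

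The housekeeping lists stayed near the scale shift. Of 75 cytosolic ribosomal protein genes none was higher, 1 was lower, and the median log2 ratio was 0.17 (-0.11 relative to all genes). RPS2 had 680 and 756 FPKM and RPL3 186 and 204 FPKM. The 60 histone genes had a median of 0.09 (-0.2 relative to all genes), with H4C4 at 565 and 689 FPKM, and none was called. The 13 mRNAs of mitochondrial DNA had a median of 0.04 (-0.25 relative to all genes), ranging from MT-ND3 (ratio 0.891) to MT-ND4 (ratio 1.27). Nuclear oxidative phosphorylation subunits had a median of 0.17 (-0.11 relative to all genes), with 2 of 50 genes higher and none lower. UQCRC2, whose few untreated reads are given below, was among these 2. Stress granule and P-body proteins had no call in 34 genes, with G3BP1 at 10.1 and 11.7 FPKM and G3BP2 at 26.5 and 33.8 FPKM. Cell cycle genes had none in 37, and tubulin, neurofilament and actin genes none in 24. At the share over all genes (4.03% higher and 0.371% lower), lists of this size would hold few calls. CCND1, which encodes cyclin D1, was at 129 FPKM (7285 reads) and 109 FPKM (5205 reads), a ratio of 0.842. Thus these lists had medians from 0.04 to 0.25 on the log2 scale, below that of all genes.

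No identity marker of the line was called. Over all genes 4.03% were higher and 0.371% lower, so lists of this size would hold few calls at that share. The noradrenergic list had 20 of 21 genes above 1 FPKM, and its summed level was 883 FPKM in untreated and 965 FPKM in AS-treated cells. TH, tyrosine hydroxylase, was the one below, at 0.0412 and 0.0485 FPKM. CHGA, chromogranin A, came nearest to a call at 26.2 and 51.7 FPKM (ratio 1.97, interval 1.79 to 2.17). Mesenchymal-type markers had 7 of 18 genes above 1 FPKM, with summed levels of 92.1 and 91.9 FPKM, and LUM and DCN were under 1 FPKM. The core neuroblastoma factors included HAND2 at 149 and 148 FPKM, and none of the 26 was called.

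The genes on the lists made up 612 of the 10774, and 71 of them were higher and 1 was lower. So 363 of the 434 higher genes were on no list. Most had low levels, since 34 of the 434 were above 10 FPKM after AS, and the median higher gene had 33 and 77 reads. The interval lay wholly above 2 in 107. The 5 higher genes listed at 0 in untreated cells were HSPA6, OR2B2 (49 reads after AS), OR2B6 (29 reads), VHLL (16 reads) and CHMP4A (12 reads), of which all but HSPA6 were picked after values were seen. Among symbols that begin with ZNF, ZKSCAN, ZSCAN or ZFP and a number, a group picked after values were seen, 45 of 457 were higher (9.85%) and 2 lower, with a median log2 ratio of 0.45. Over all genes, 4.03% were higher and 0.371% lower, and the median log2 ratio was 0.28.

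The higher genes were compact. Their median genomic span was 16404 bases with 5 exons, against 29732 bases and 9 exons in genes that were not called. Of the higher genes 17.97% had 1 or 2 exons, against 6.19%. The 40 lower genes were compact too, with a median span of 10525.5 bases, 6 exons and 10% with 1 or 2 exons. Compactness was therefore not particular to the higher genes. Median reads were low in both classes, 33 and 77 (higher) and 49.5 and 12 (lower), against 208 and 222 over all genes. Among genes above 1 FPKM in both libraries, 73 higher calls fell in the quintile with the shortest spans and 10 in the longest. The longest quintile begins at 86090 bases. The median ratio followed base composition. The median log2 ratio was 0.41 in the quintile of transcripts with the lowest GC content and 0.15 in that with the highest. By transcript length, 46 higher calls fell in the shortest quintile, 63 in the next and 17 in the longest. The median log2 ratios lay between 0.24 and 0.32 by transcript length, with no order, and between 0.25 and 0.31 by genomic span.

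**Figure D4:**
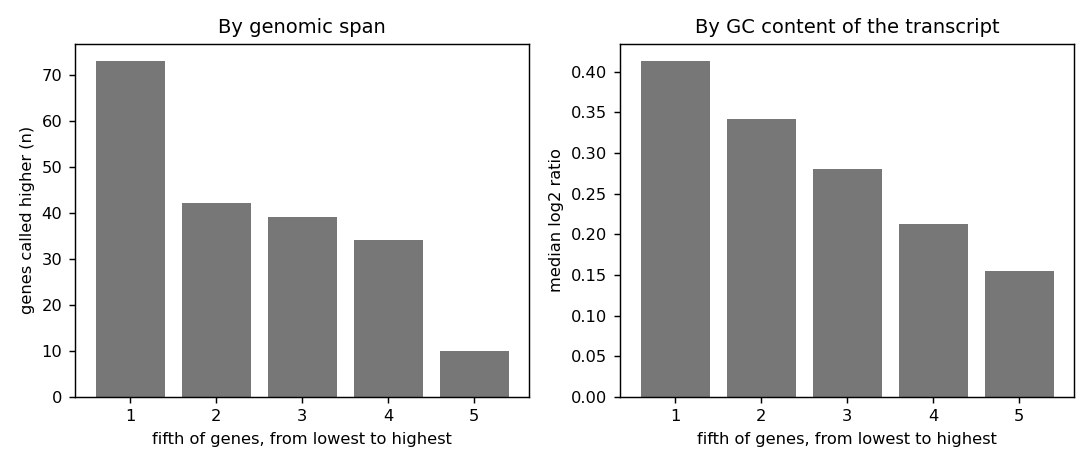
Left, number of genes called higher in each quintile of the genes above 1 FPKM in both libraries, ordered by genomic span (from 73 to 10). Right, median log2 ratio in each quintile ordered by GC content of the canonical transcript (from 0.41 to 0.15). Bars start at 0 and carry no error.

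Lower values were few, and 4 genes above 10 FPKM were called lower, among them CSNK2B, EEF1B2 and EIF3CL. KMT2D, a histone H3K4 methyltransferase with 55 exons at chr12:49018978-49060794, had 10.2 FPKM (2801 reads) and 5.72 FPKM (1331 reads), a ratio of 0.56 (interval 0.524 to 0.598) that was not called. MEX3A, an RNA-binding protein gene, had 36.4 FPKM (3191 reads) and 23.97 FPKM (1782 reads), and CIRBP, the cold-inducible RNA-binding protein, had 13.5 and 9.59 FPKM. SH3PXD2A, SOGA1, TBC1D16, SIX3, HIPK2, ZMIZ1, COX17 and ENSG00000111780 completed the smallest ratios above 10 FPKM, with values from 0.715 to 0.792, so that none of these 11 genes reached 0.5 as deposited. Relative to the median, KMT2D did, with a ratio of 0.46 (log2 ratio -1.12), and it also passed after scaling to equal protein-coding sums (log2 ratio -1.05). IGSF9B (8.18 and 3.96 FPKM, 1865 and 767 reads) and ACACA, acetyl-CoA carboxylase (1.5 and 0.328 FPKM, 199 and 37 reads), were called lower. Both were picked after values were seen.

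Of the genes called lower, CSNK2B and EEF1B2 had few reads in the AS-treated library. CSNK2B, the regulatory subunit of casein kinase 2 at chr6:31666080-31670067, had 20.9 FPKM (258 reads) and 1.14 FPKM (12 reads). EEF1B2, an elongation factor, had 29.9 FPKM (321 reads) and 5.05 FPKM (46 reads). EIF3CL, at 13.2 and 5.75 FPKM, lay opposite to its near-identical copy EIF3C, at 2.64 and 7.1 FPKM, and is uncertain for that reason. Few reads in one library were also seen in the other direction, for genes that every cell uses. UQCRC2, a subunit of respiratory complex III, had 4 and 59 reads, NEDD8 had 8 and 77 reads, and PSMC4, a proteasome ATPase, had 35 and 241 reads.

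In the siCtrl and Total libraries CSNK2B, EEF1B2, UQCRC2, NEDD8 and PSMC4 differed far less. TPM, a length-scaled share of the library, of siCtrl, the control knockdown, and Total, the lysate of AS-treated cells, was 131 and 163 for CSNK2B, 369 and 464 for EEF1B2, 42.8 and 39.6 for UQCRC2, 128 and 149 for NEDD8 and 153 and 144 for PSMC4. In each of these 5, the rRNA-depleted value of the lower library was under 2% of the siCtrl TPM. This held for 61 of the 10774 genes, of which 18 were called higher and 13 lower, and without them 416 and 27 calls were left. All 9 transcripts of CSNK2B above 1 FPKM were called lower, but a retained-intron row under 1 FPKM (ENST00000481269) had 8 and 7 reads. In EEF1B2, 9 of 10 were lower, and the other (ENST00000455150) had 22 and 22 reads. The table also lists RPS18 and RPS25 at 0 in both libraries, and 189 genes not above 1 FPKM in either had more than 10 TPM in both siCtrl and Total. Therefore a gene without a value here may still be expressed. The origin of these values was not tested.

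The same libraries hold the induced genes. They were normalized separately, the labels put one arsenite line, at a different dose, on all of them including siCtrl, and Total came from the supernatant of lysed cells, so values are set side by side only. EGR1 was at 8.08 TPM in siCtrl and 269 in Total, FOS at 2.71 and 174, JUN at 22.1 and 216, and FOSB at 0.206 and 16.9. MT2A was at 98.3 and 615 TPM and DNAJB1 at 78.5 and 256 TPM. Of the 373 higher genes above 1 TPM in siCtrl or Total, 37 (9.92%) were more than 2-fold higher in Total, against 1.77% of all 10320 such genes. In contrast, 59 (15.8%) were under 0.5 of siCtrl, against 25.2% of all. BTG2 (15.2 and 12.4 TPM) and MCL1 (71.1 and 36.2 TPM) were among the higher genes without a higher Total value. In SG cores, EGR1 had 3277 TPM, JUN 880 and FOS 802. These do not stand for the higher genes as a whole. Among genes above 1 TPM in Total or SG, the median log2 ratio of SG to Total, with 1 TPM added to each, was 1.54 for the higher genes. It was 1.57 for all genes.

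**Figure D5:**
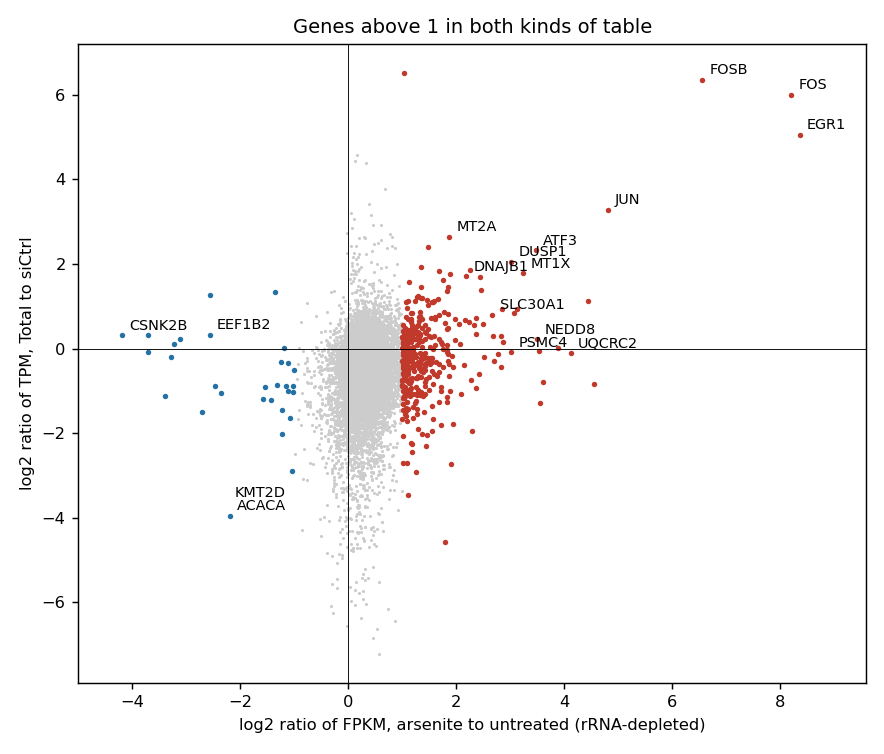
Log2 ratio of AS-treated to untreated FPKM in the rRNA-depleted libraries (x) against log2 ratio of Total to siCtrl TPM (y), for 10315 genes above 1 in both kinds of table and above 0 in all 4 libraries. Red, called higher (371); blue, called lower (30). EGR1, FOS, FOSB and JUN are high on both axes, whereas CSNK2B, EEF1B2, NEDD8, PSMC4 and UQCRC2 are far from 0 on x and near 0 on y.

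The eCLIP tables hold log10 values of 2 libraries per group, given here as deposited for a few genes picked after values were seen. With G3BP1, EGR1 was at 1.49 and 1.48 without AS and at 0.3 and 0.48 with it. With G3BP2 it was at 1.28 and 1.2 against 0 and 0.48. DUSP1 with G3BP1 was at 1.23 and 0.9 against 0.48 and 0.3. In these pairs both AS values lay below both untreated values and near the bottom of the scale. How many of all genes do the same was not counted, so nothing particular to these genes follows. DNAJB1, in contrast, overlapped, at 2.81 and 2.45 against 2.81 and 1.28 with G3BP1. The libraries themselves differed, with medians over all genes above 1 FPKM of 2.62 and 2.1 without AS and 2.59 and 1.91 with AS for G3BP1. Over the higher genes, the median of the duplicates' mean was 1.965 against 1.825, and over all genes above 1 FPKM it was 2.35 against 2.235. The differences were not tested.

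Transcripts of all types were called by the same rule. Of 100705 rows above 1 FPKM, 6891 were higher (background 6.84%) and 2029 lower (background 2.01%). Isoforms of a gene share reads, so that these rows are not independent. Among lncRNA transcripts, 797 of 5595 were higher (14.2%) and 307 lower (5.49%). H19, an imprinted lncRNA, had 8 of its 12 rows above 1 FPKM called higher, one of them (ENST00000428066) at 10.2 and 46.8 FPKM. The smallest lncRNA ratios above 10 FPKM were those of HAND2-AS1 (ENST00000512099) at 17.7 FPKM (503 reads) and 4.27 FPKM (103 reads), and GTF2IP1 (ENST00000622399) at 13.9 and 2.95 FPKM. Retained-intron transcripts were higher in 6.18% and lower in 2.93% of 18215 rows. The largest ratio above 10 FPKM among them was in MT1X (ENST00000568370), with 21 and 389 reads. Of 656 processed pseudogene rows, 115 were lower (17.5%) and 110 higher (16.8%). Of 22 snoRNA rows above 1 FPKM, 2 were higher and 6 lower, and of 8 snRNA rows none was higher and 1 lower. Of 53 miscellaneous RNA rows, 7 were higher and 18 lower. In such short transcripts few reads make up a value. In untreated cells SNORA23 had 12.4 FPKM from 30 reads, RNU1-1 41.3 FPKM from 90 and the pseudogene RPS27P8 11.6 FPKM from 39. Calls near 1 FPKM in these types therefore rest on very few reads. No snRNA or snoRNA above 10 FPKM was called. RN7SK, the regulator of P-TEFb, was at 30705 and 33360 FPKM, RNU2-2P at 136 and 172 FPKM and the snoRNA SNORA73B at 83.0 and 85.2 FPKM. SNORD3A (15.2 and 10.3 FPKM) and RNU1-1 (41.3 and 27.6 FPKM) had the smallest ratios above 10 FPKM in their types.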

How the data were processed

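rRNA-depleted RNA of 1 untreated and 1 AS-treated culture was sequenced. According to the methods, the authors trimmed reads with fastp, aligned them to GRCh38 with HISAT2 (version 2.1.0 in the submitters' processing notes) and estimated abundances per transcript with StringTie. The deposited columns are headed TPM but sum to 1039719 and 1216810, which TPM cannot, and they are treated as FPKM. Each value times its transcript's length is a whole multiple of 1 constant per library in 100% of untreated and 99.9993% of AS-treated rows (within 0.02 reads), which gave the reads and the totals. A read shared by isoforms is counted in each. The authors deposited TPM of the knockdown, Total and SG libraries and log10 eCLIP values as further tables. The methods name poly-A selection for the knockdown libraries and no selection for Total and SG.

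Transcripts were matched to GENCODE release 44 by ID (234140 of 256980), another release than the authors'. Whole reads were recovered in both libraries for 10377 of the 10774 genes. Ratios have no pseudocount. Intervals are exact conditional binomial intervals (Clopper-Pearson), and the call rule and the interval were tested on simulated counts. The recovery of whole reads was not part of that test. The design had expected TPM, and the ratios apply to FPKM unchanged. No columns were left unassigned.

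Named are EGR1, FOS and JUN, the 15 largest and 15 smallest ratios above 10 FPKM and above 0 in both libraries (no gene above 10 FPKM was listed at 0 in the other library), for each list up to 5 members with the largest change and up to 2 with the highest level plus family members, and the 2 largest and 2 smallest ratios per transcript type. Other genes, among them MYC, HSF1, BBC3, TRIB1, COL1A1, RPS18, RPS25, EIF3C and several list members that were not called, were chosen after values were seen. The members and lists were chosen with earlier results of these data known. Promoter windows are RefSeq's. Tables were handled with pandas 2.3.3 under Python 3.11.15, intervals came from scipy 1.17.1, arrays from numpy 2.4.6 and plots from matplotlib 3.10.9. A few genes that the rule names are not reported here. SMInput and knockdown libraries were not analysed here.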

Additional observations from a re-analysis of the deposited data

How the results depend on the processing

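With 1 library per side, none of the counts has a check against replicates. The count of higher protein-coding genes, 434, became 1910 at a fold of 1.5, 62 at 4, 101 with a pseudocount of 1, 100 with a minimum of 5, 2229 with no minimum, 188 after median scaling, 234 after scaling to equal protein-coding sums, 107 with intervals wholly past the fold and 956 with all transcripts summed. The count of lower genes, 40, became in the same order 97, 15, 12, 6, 683, 75 and, leaving out the sum scaling, 10 with intervals and 173 with transcripts summed, and it was 78 with the highest transcript per gene. For all transcripts, the 6891 higher rows became 20732, 1203, 1517, 1061, 26661, 3078, 3921 and 654, and the 2029 lower rows became 4421, 592, 473, 129, 14211, 3473 and, without the sum scaling, 212. A pseudocount of 0.1 (368 and 36 genes) and leaving out the genes under 2% of siCtrl, an alternative added after seeing the data (416 and 27 genes), stayed within 1.5 times. The 66 called genes among those named kept their direction with the highest transcript per gene and with transcripts summed. The exception is UQCRC2, which has no ratio with its highest transcript, listed at 0 in untreated cells. The pseudocount and the rescalings cannot reverse a called ratio, so the direction under them was fixed in advance. Of the 66, 50 stayed past 2-fold after median scaling and 41 with a pseudocount of 1. Low counts limit genes such as FOS, FOSB and HMOX1, and differences between cultures, handling or library preparation cannot be told apart from the treatment. No paired analysis was possible because each side has 1 library and the replicate numbers in the labels belong to eCLIP libraries.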
